A study of Homo sapiens with 3 samples.

Results

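Actin is the protein of the thinnest filaments of the cytoskeleton, and this report gives the transcript levels of 10 genes that make it or control its assembly in MCF10A cells. The genes were chosen by name from the families of actin (ACTB, ACTG1), beta-thymosin (TMSB10, TMSB4X), profilin (PFN1, PFN2), cofilin (CFL1, CFL2) and gelsolin (GSN, CAPG), selected on the measured TPM of ACTB and TMSB10, which are among the highest in the table. All 10 were found, each by 1 Ensembl identifier, among 62754 genes in all, of which 20046 are protein-coding. Because high levels picked the group, the levels below are a description and carry no test.

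MCF10A cells are human mammary epithelial cells that grow without limit in culture but do not form tumors. The cells carried the retroviral Tet-One vector without an inserted gene, were selected with puromycin and received no doxycycline, and RNA was sampled 27 h after seeding. There is 1 group of 3 replicates in 1 batch, with neither a treated nor an untransduced group beside it, and the labels do not say whether the replicates were separate cultures. The spread between them may therefore be technical. Total RNA (300 ng) was depleted of ribosomal RNA, and the deposited unit is TPM, the reads of a gene per base of its length, scaled so that all genes sum to 1000000. Reads were recovered from TPM and gene length, which gave 15273329, 15446347 and 11166546 reads in replicates 1, 2 and 3. Protein-coding genes held 91.5%, 89.8% and 79.6% of TPM, so that replicate 3 leaves less TPM for any protein-coding gene. Of 7 markers of breast epithelium (KRT5, KRT14, KRT17, TP63, CDH1, EPCAM and ITGB4), all 7 were at or above 1 TPM, against 56.7% of protein-coding genes. KRT5, a keratin of basal cells, was the highest at 6612 ± 890 TPM (SD, n = 3), and EPCAM the lowest at 14.6 TPM. The summed TPM of the muscle markers was between 0.0275 and 0.331 (0 of 5 genes at or above 1 TPM), of the blood markers between 0.812 and 1.20 (0 of 5), of the endothelial markers between 1.57 and 1.997 (1 of 3, PECAM1) and of the fibroblast markers between 13.4 and 14.3 (2 of 5, with DCN the highest). Among the markers without a read in any replicate were MYOD1, MYOG, CKM, CD3E, HBB, CDH5, COL1A2, PDGFRA and LUM.

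Actin monomers add to and leave the ends of filaments, and a large part of the monomer in a cell is held in reserve. Beta-thymosins bind monomers and keep them from assembling, profilins hand monomers to growing ends, cofilins sever old filaments and speed their disassembly, and gelsolin and CapG cap filament ends in response to calcium, with gelsolin also cutting filaments. Free actin monomer also holds back the coactivators of the transcription factor SRF, whose targets include actin genes themselves. In epithelial cells, the beta and gamma cytoplasmic actins form the cell cortex, the belts at cell contacts and the protrusions of moving cells.

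The pairs of related genes differ in how alike their coding sequences are, which bears on whether short reads can be told apart. The coding sequences of ACTB and ACTG1 each have 1125 bases without the stop codon and were identical at 91.3% of positions, and 93 of the 98 differences lay at the third base of a codon. Those of TMSB10 and TMSB4X each have 132 bases and were identical at 72.0%, with 37 differences. The identity was 70.1% for CFL1 and CFL2 over 498 bases and 60.5% for PFN1 and PFN2 over 420 bases. The sequences were read from the canonical transcripts of GENCODE release 44 on hg38. The first 60 coding bases of the actins are shown because they hold the start of the protein, where the beta and gamma proteins differ. Capitals mark bases that differ between both genes, 10 of these 60.
ACTB: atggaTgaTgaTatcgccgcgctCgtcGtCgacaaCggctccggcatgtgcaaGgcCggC
ACTG1: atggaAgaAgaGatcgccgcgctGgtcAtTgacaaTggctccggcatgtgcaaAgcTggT

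The whole coding sequence is shown for the beta-thymosins, the pair on which the largest difference between settings rests, again with the 37 differing bases in capitals.
TMSB10: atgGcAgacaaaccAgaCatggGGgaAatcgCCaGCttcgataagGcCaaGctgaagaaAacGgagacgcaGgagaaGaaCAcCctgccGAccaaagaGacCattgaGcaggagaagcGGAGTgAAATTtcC
TMSB4X: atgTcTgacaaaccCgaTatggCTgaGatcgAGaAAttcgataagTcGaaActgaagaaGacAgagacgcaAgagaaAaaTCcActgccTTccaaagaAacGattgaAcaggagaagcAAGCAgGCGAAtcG

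The share of TPM that fell to the 10 genes was 2.31%, 2.31% and 1.98% in replicates 1, 2 and 3, and their share of the reads was 1.35%, 1.38% and 1.29%. All 10 had a mean of at least 1 TPM, the cutoff the study used for its metabolic model, against 56.7% of protein-coding genes. A mean of at least 100 TPM was reached by 8 of 10, against 7.86% of protein-coding genes. Nothing is read from these counts, since the genes were picked for high levels. In deposited TPM, the 10 genes spanned from 13.6 TPM for GSN to 7943 TPM for ACTB.

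**Figure D1:**
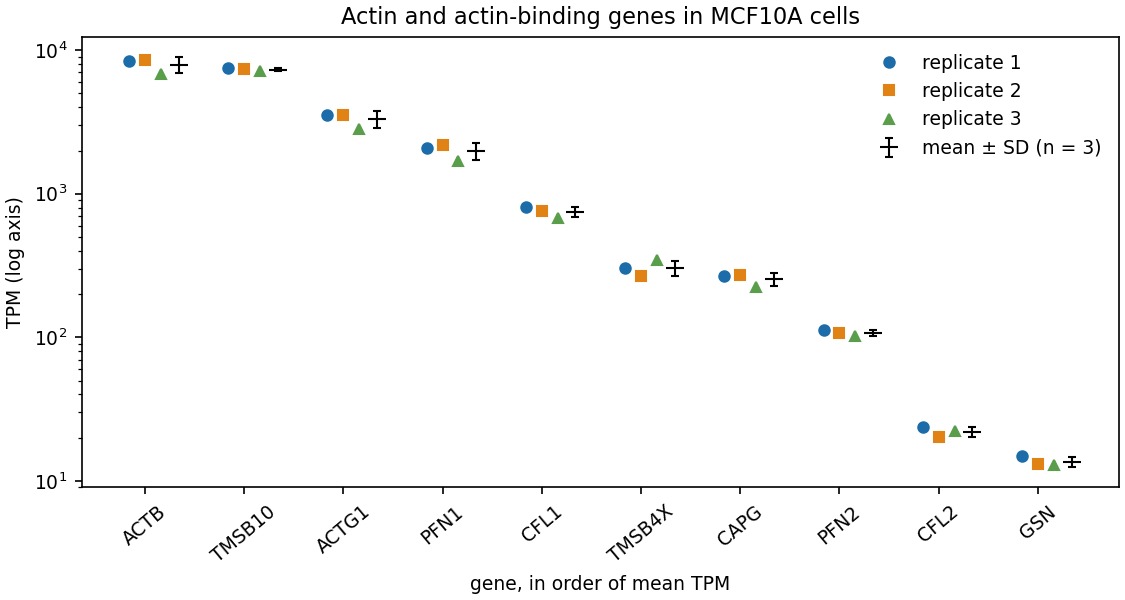
TPM on a log axis of the 10 genes in replicates 1, 2 and 3 (circles, squares and triangles), with the mean ± SD (n = 3) beside them. ACTB and TMSB10 lie together at the top, from 6811 to 8584 TPM, and GSN is lowest, with 12.9 to 14.8 TPM.

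The cytoplasmic actins made up 51.0% of the summed TPM of the 10 genes. ACTB (ENSG00000075624, chromosome 7 of hg38, 5526409 to 5563902, minus strand) encodes beta-actin, and was measured at 8433, 8584 and 6811 TPM in replicates 1, 2 and 3, with a mean of 7943 ± 983 TPM (SD, n = 3). Replicate 3 was the lowest, and the values rest on 113256, 118491 and 77822 reads. ACTB ranked 4th, 4th and 5th among protein-coding genes. ACTG1 (ENSG00000184009, chromosome 17, 81509413 to 81523847, minus strand) encodes gamma-actin, and was measured at 3556, 3559 and 2805 TPM, with a mean of 3306 ± 434 TPM (SD, n = 3). It followed the same order of replicates, with replicates 1 and 2 within 1 SD of each other and replicate 3 below. Both genes varied by 12.4% and 13.1% of their means (coefficient of variation, CV) between replicates, whereas their ratio varied little. ACTB exceeded ACTG1 by 2.37, 2.41 and 2.43 times, a mean of 2.40 ± 0.0291 (SD, n = 3), the least variable of the 5 ratios.

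The other actin isoforms were far lower. ACTA2, the smooth muscle actin that myoepithelial cells also make, was measured at 9.76, 7.92 and 4.82 TPM, lowest in replicate 3. With the lengths of canonical transcripts, described below, its mean was 12.8 TPM. On the opposite strand 38.3% of its canonical transcript was shared with another annotated gene, and the use of strand in counting is not known. ACTG2, ACTBL2 and ACTA1 had means of 0.255, 0.112 and 0.0885 TPM, below 1 TPM in every replicate. ACTC1, the cardiac actin, had no read, which allows up to 0.287 TPM (3 reads in the shallowest replicate), by counting error only. The coding sequences of actins are alike, so reads could have been assigned across isoforms.

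The beta-thymosins made up 34.8% of the summed deposited TPM, nearly all of it from TMSB10. With the lengths of canonical transcripts, described below, their share was 29.1%. TMSB10 (ENSG00000034510, chromosome 2, 84905656 to 84906671, plus strand), which encodes thymosin beta-10, was measured at 7532, 7336 and 7102 TPM, with a mean of 7323 ± 215 TPM (SD, n = 3). Its CV between replicates, 2.94%, was the lowest of the 10 genes in deposited TPM, but was 4.94% with protein-coding genes summing to 1000000, above those of CFL1, CAPG and PFN2. Its transcript is only 461 bases long, so that this level came from 18182, 18202 and 14586 reads against 113256, 118491 and 77822 for ACTB. TMSB4X (ENSG00000205542, chromosome X, 12975110 to 12977227, plus strand), which encodes thymosin beta-4, was measured at 304, 267 and 343 TPM, with a mean of 305 ± 37.8 TPM (SD, n = 3). It was highest in replicate 3, the replicate in which ACTB, ACTG1 and TMSB10 were lowest. TMSB10 thus exceeded TMSB4X by 24.8, 27.4 and 20.7 times in TPM, but this ratio depends on how reads and lengths were assigned to TMSB4X, as given below. Of the other thymosin genes, TMSB15A had a mean of 1.32 TPM from 13 reads in all, and TMSB15B and TMSB15C had means of 0.636 and 0.152 TPM.

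The profilins made up 9.47% of the summed TPM. PFN1 (ENSG00000108518, chromosome 17, 4945652 to 4949061, minus strand), the profilin of nearly all tissues, was measured at 2081, 2182 and 1682 TPM, with a mean of 1982 ± 264 TPM (SD, n = 3). PFN2 (ENSG00000070087, chromosome 3, 149964904 to 150050788, minus strand), best known from neurons, was measured at 113, 108 and 102 TPM, with a mean of 107 ± 5.53 TPM (SD, n = 3). Replicate 3 was lowest for both, and PFN1 exceeded PFN2 by 18.4 ± 1.87 times (SD, n = 3) in deposited TPM, a ratio that was 29.4 ± 2.99 per window without a copy, as described below. PFN4 and PFN3, the profilins of the testis, had means of 2.14 and 0.115 TPM.

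The cofilins made up 3.51% of the summed TPM. CFL1 (ENSG00000172757, chromosome 11, 65823022 to 65862026, minus strand), the non-muscle cofilin, was measured at 808, 758 and 681 TPM, with a mean of 749 ± 64.2 TPM (SD, n = 3). CFL2 (ENSG00000165410, chromosome 14, 34709113 to 34714823, minus strand), the cofilin of muscle, was measured at 23.6, 20.2 and 22.3 TPM, with a mean of 22.03 ± 1.73 TPM (SD, n = 3). CFL1 was lowest in replicate 3 and CFL2 in replicate 2, and CFL1 exceeded CFL2 by 34.1 ± 3.55 times (SD, n = 3) in deposited TPM and by 51.3 ± 5.35 times with the lengths of canonical transcripts, described below. DSTN, or destrin, the related depolymerizing factor of epithelial cells, lay between them at 318, 274 and 278 TPM.

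GSN and CAPG made up 1.21% of the summed TPM. CAPG (ENSG00000042493, chromosome 2, 85394753 to 85418432, minus strand), which caps filaments without cutting them, was measured at 265, 271 and 225 TPM, with a mean of 254 ± 25.2 TPM (SD, n = 3). GSN (ENSG00000148180, chromosome 9, 121207794 to 121332843, plus strand), gelsolin itself, was measured at 14.8, 13.0 and 12.9 TPM, with a mean of 13.6 ± 1.07 TPM (SD, n = 3). In deposited TPM, GSN was the lowest of the 10 genes in every replicate, at 0.0537 ± 0.00488 of CAPG (SD, n = 3). With the lengths of canonical transcripts it lay above CFL2 in every replicate, at 0.135 ± 0.0122 of CAPG (SD, n = 3). Of the rest of the gelsolin family, FLII, the flightless homolog, had a mean of 155 TPM and SVIL, supervillin, 31.2 TPM, whereas AVIL, VILL and SCIN lay below 1 TPM and VIL1, the villin of brush borders, had no read, which allows up to 0.103 TPM.

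In order of mean deposited TPM, the genes were ACTB, TMSB10, ACTG1, PFN1, CFL1, TMSB4X, CAPG, PFN2, CFL2 and GSN. Of the 9 pairs of neighbours, 7 did not overlap between replicates. ACTB and TMSB10 differed by 619 TPM, less than the SD of ACTB, and TMSB10 was the higher in replicate 3. TMSB4X and CAPG also overlapped, with CAPG the higher in replicate 2. The protein-coding genes whose TPM was closest to ACTB over the 3 replicates (distance of log2(TPM + 1)) were KRT5, MT-ND4 and MT-CO2, at distances of 0.47, 0.67 and 0.92. For TMSB10 they were KRT5, MT-ND4 and S100A2, at 0.35, 0.45 and 0.78.

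Relative to actin, the profilins varied least between replicates, and the thymosins, the cofilins and GSN with CAPG were highest in replicate 3. Summed profilin TPM was 0.183, 0.189 and 0.186 of summed actin TPM in replicates 1, 2 and 3, a mean of 0.186 ± 0.00281 (SD, n = 3). Summed cofilin TPM was 0.0694, 0.0641 and 0.0731 of actin, and GSN with CAPG 0.0234, 0.0234 and 0.0247. Summed thymosin TPM was 0.654, 0.626 and 0.774 of actin, with replicate 3 above the others. A ratio of transcripts per length is not a ratio of proteins.

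Replicate 3 was below both other replicates for 8 of the 10 genes, TMSB4X and CFL2 being the exceptions. This held for 84.3% of the 8364 protein-coding genes that averaged 10 TPM or more, so the count is near the background. Among those genes, the median log2 ratio of replicate 3 to the mean of replicates 1 and 2 was -0.24, with 5% of genes below -0.49 and 5% above 0.02. ACTB, ACTG1 and PFN1 lay between -0.34 and -0.32, CAPG and CFL1 at -0.26 and -0.20, and PFN2, GSN and TMSB10 between -0.12 and -0.07. CFL2 was at 0.03 and TMSB4X at 0.26, above 95.3% and 99.4% of these genes. Protein-coding genes with a canonical transcript under 700 bases, 228 in number, lay 0.20 above the median of all, and TMSB10 and TMSB4X, the members of this length, lay 0.18 and 0.51 above it. In the 3 classes of longer transcripts the median ratio was -0.23, -0.25 and -0.25. The classes of length were set after the values were seen, and the part of length in these ratios was not tested.

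**Figure D2:**
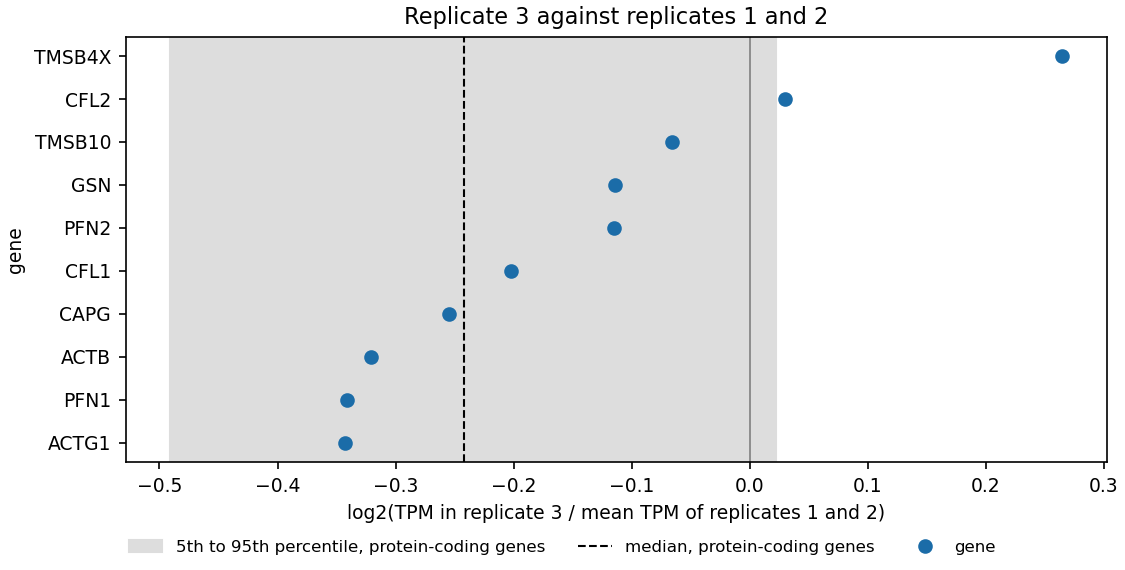
Log2 ratio of the TPM in replicate 3 to the mean TPM of replicates 1 and 2 for the 10 genes (points), with the median (dashed) and the 5th to 95th percentile (grey) of 8364 protein-coding genes that averaged 10 TPM or more. TMSB4X, at 0.26, and CFL2, at 0.03 and just past the edge, lie above the grey band, and the other 8 genes lie inside it.

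The SD of log2(TPM + 1) between replicates had a median of 0.14 over the 10 genes, 0.15 over the 1576 protein-coding genes averaging 100 TPM or more and 0.19 over all 15640 genes averaging 1 TPM or more. Without replicate 3 it was 0.05 for the 10 genes and 0.11 for all genes averaging 1 TPM or more. Rescaling so that protein-coding genes sum to 1000000 in each replicate lowered it to 0.08 for the 10 genes and likewise to 0.08 for the 1576 genes. On that scale ACTB was at 9214, 9560 and 8554 TPM and TMSB10 at 8230, 8170 and 8920 TPM, so that TMSB10 was then highest in replicate 3. TMSB4X varied most, at 332, 298 and 431 TPM, a CV of 19.5%, and CFL1 least, at 883, 844 and 855 TPM, a CV of 2.35%. Counting error alone gives a CV of 0.312% for ACTB and 1.97% for TMSB4X in the deposited TPM, and of 4.59% and 4.76% for CFL2 and GSN, whose measured CVs were 7.87% and 7.86%.

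The gene length behind TPM was that of the longest annotated transcript, which for most of these genes is not the canonical one. For TMSB4X the longest transcript has 1702 bases and the canonical one 622, a ratio of 2.74. For GSN the longest, annotated as a retained intron without a coding sequence, has 6454 bases and the canonical one 2595, a ratio of 2.49. For ACTB, ACTG1, PFN1, PFN2 and CFL1 the ratio was between 1.14 and 1.51, and for TMSB10, CFL2 and CAPG the transcript was the same. With reads divided by canonical lengths for every gene, TMSB4X was at 683 ± 92.9 TPM and GSN at 27.6 ± 1.99 TPM (SD, n = 3 each), and GSN then lay above CFL2 at 18.0 ± 1.47 TPM (SD, n = 3). TMSB10 was at 5956 ± 113 TPM (SD, n = 3), below ACTB at 9136 ± 1022 TPM (SD, n = 3) in every replicate. The order of the other genes was kept. The ratio of ACTB to ACTG1 was then 2.61 ± 0.0316, of PFN1 to PFN2 23.6 ± 2.40, of CFL1 to CFL2 51.3 ± 5.35, of TMSB10 to TMSB4X 8.84 ± 1.23 and of GSN to CAPG 0.135 ± 0.0122 (SD, n = 3 each). Which transcripts these cells make was not measured here.

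Several of these genes have processed pseudogenes, copies of the spliced transcript elsewhere in the genome, and a read that is identical in several places has no single origin. Every stretch of 50 bases of each canonical transcript was looked up in hg38 on chromosomes 1 to 22, X and Y, outside the gene itself. An exact copy was found for 427 of 573 windows (74.5%) of TMSB4X, including all 83 windows inside its coding sequence. The share was 19.1% for ACTB, 16.8% for PFN1, 8.24% for ACTG1, 2.43% for TMSB10, 0.940% for CFL2 and 0.585% for CFL1, and no window of PFN2, GSN or CAPG had a copy. With windows of 100 bases, it was 39.2% for TMSB4X, 7.63% for PFN1 and 0.175% for ACTB, and 0 for the other 7 genes. The read length is not given in the sources used here.

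**Figure D3:**
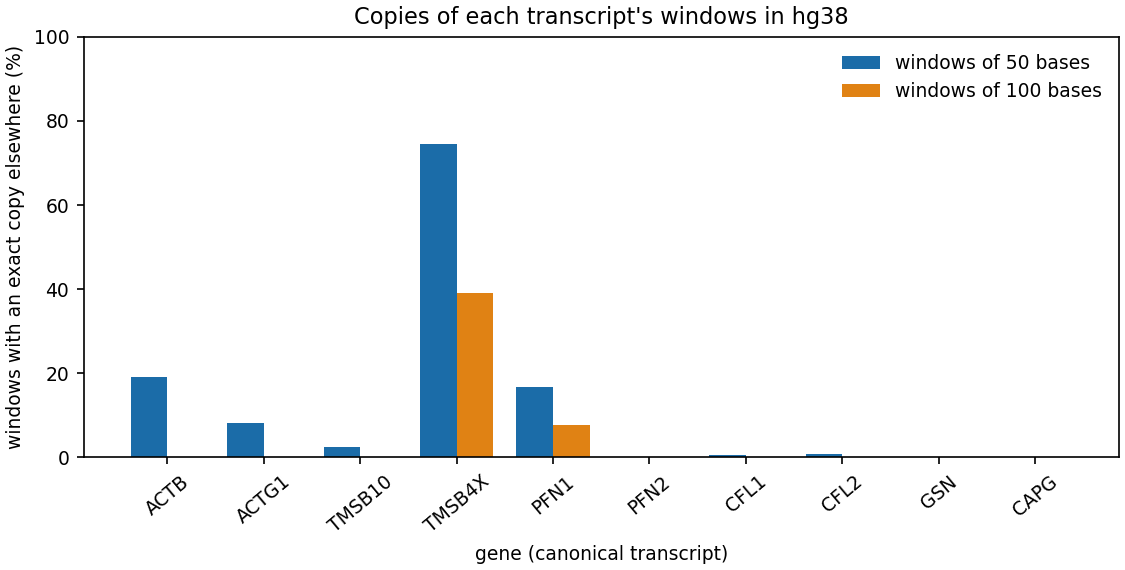
Percent of all windows of 50 bases (blue) and 100 bases (orange) of each canonical transcript that occur exactly, on either strand, elsewhere in hg38. TMSB4X stands apart with 74.5% and 39.2%, and PFN2, GSN and CAPG have none.

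Pseudogenes named after the members received few reads. The 12 named after ACTB held 14, 26 and 10 reads in replicates 1, 2 and 3, of which ACTBP4 held the most, and the 21 named after ACTG1 held 37, 60 and 47, with ACTG1P20 the highest. The 6 named after TMSB4X held 10, 12 and 6 reads, led by TMSB4XP8. The 9, 10 and 2 entries named after CFL1, PFN1 and TMSB10 held 14, 7 and 3 reads over all replicates, with CFL1P5, PFN1P1 and TMSB10P1 the highest. An entry of CFL1P1 among the 9 is annotated as a long noncoding RNA and held 4 of the 14 reads. In all cases the reads of the copies were at most 0.359% of those of the member, the share for TMSB4X. The annotation has 18 protein-coding genes under the same symbol on chromosomes X and Y, and 18 of 18 had no read on either copy. What was done with reads that match several places is not given in the sources used here. The values of genes with copied windows are therefore uncertain to the extent of their copies, most for TMSB4X, ACTB, PFN1 and ACTG1. As a further scale, all reads of a gene were divided by its number of 50-base windows without a copy. The ratio of TMSB10 to TMSB4X was then 2.43, 2.68 and 2.03 in replicates 1, 2 and 3. In TPM it was 24.8, 27.4 and 20.7. This scale holds only if reads act as 50-base windows and none from a copied window was counted. Neither is known. With windows of 100 bases fewer of TMSB4X had a copy (39.2%), and the ratio was not computed for them. The same scale gave 2.97 ± 0.0359 for ACTB to ACTG1, 29.4 ± 2.99 for PFN1 to PFN2, 52.7 ± 5.49 for CFL1 to CFL2 and 0.132 ± 0.0120 for GSN to CAPG (SD, n = 3 each). TMSB10 exceeded TMSB4X on each scale in each replicate, but by how much was not fixed by these data.

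**Figure D4:**
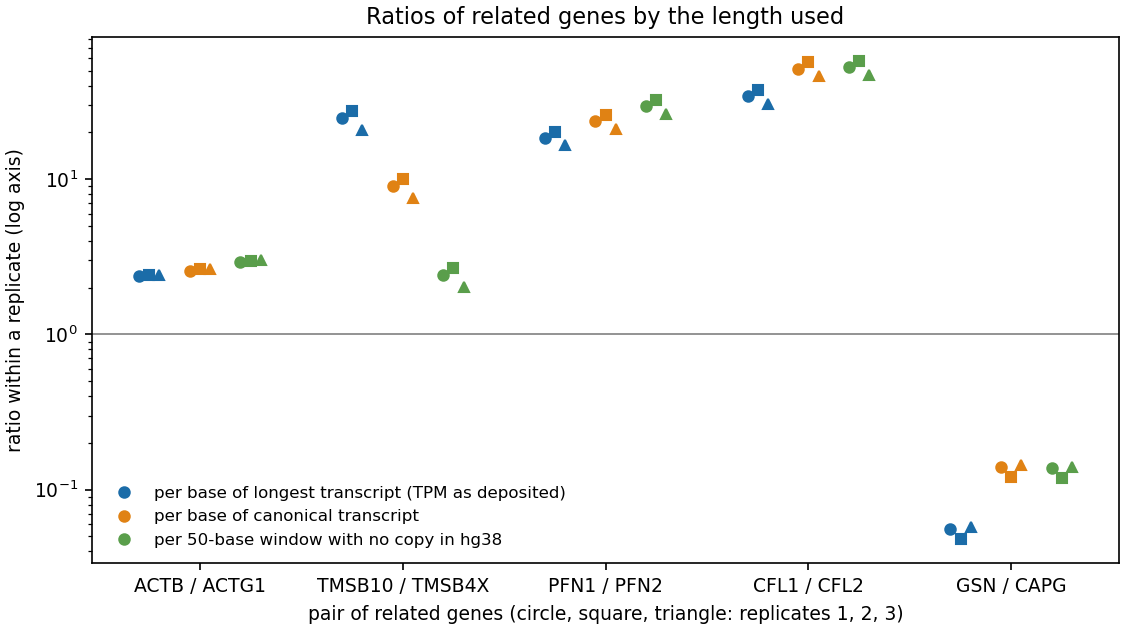
Ratio of related genes within each replicate on a log axis, by reads per base of the longest transcript (blue), per base of the canonical transcript (orange) and per window of 50 bases with no copy in hg38 (green). The ratio of TMSB10 to TMSB4X falls from 24.3 to 8.84 and 2.38 on average, and that of ACTB to ACTG1 has means of 2.40, 2.61 and 2.97. The green scale assumes that reads act as 50-base windows and that none from a copied window was counted.

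On the same strand, 1.37% of the canonical transcript of PFN2 and 0% of that of the other 9 genes was shared with another annotated gene. On the opposite strand, 13.8% of PFN1, 9.16% of CFL1, 3.58% of GSN and 1.95% of TMSB10 was shared, and whether strand was used in counting is not given in the sources used here.

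Other genes of actin assembly and turnover were read from 14 lists with 93 genes. The mean was at or above 1 TPM for 71 and below it for 22, against 56.7% of all protein-coding genes at or above it. It was at or above 100 TPM for 24, against 7.86% of all protein-coding genes. The median over the 93 genes, with those below 1 TPM included, was 29.5 TPM. Over only the protein-coding genes that reached 1 TPM on average it was 24.9 TPM, so these medians are not of like sets. All 10 genes of the ARP2/3 complex, which starts branched filaments, were at or above 1 TPM, led by ARPC2 at 640, 567 and 565 TPM. ARPC1A and ARPC1B were low, at 27.3 and 5.53 TPM, but 76.5% and 85.5% of their canonical transcripts also lie in exons of a neighbouring gene with the same orientation. Of the ARP2/3 activators 5 of 7 were at or above 1 TPM, led by CTTN (cortactin) at 236 TPM, and the blood cell genes WAS and HCLS1 were below.
Of the formins, which build unbranched filaments, 10 of 13 were at or above 1 TPM, led by DIAPH1 at 344 TPM, close to CAP1 (345 TPM), the highest of the 6 cofilin helpers, all of which were at or above 1 TPM. CAP1 recharges and releases monomers after cofilin has acted. Of the kinases and phosphatases that switch cofilin off and on, 7 of 8 were at or above 1 TPM, with LIMK2 the highest at 88.1 TPM. Capping protein reached 1 TPM for 3 of 4 genes, with CAPZA1 at 373 TPM, and not for CAPZA3, known from sperm. The other genes of the ADF/cofilin family reached it for 7 of 8, with DSTN the highest in deposited TPM. With the lengths of canonical transcripts COTL1, at 333 TPM, was above DSTN, at 237 TPM.
All 4 tropomyosins, which lie along filaments, were at or above 1 TPM, with TPM4 at 295 TPM. Among the crosslinkers 8 of 11 were, led by FLNA (filamin A) at 708 ± 85.6 TPM (SD, n = 3), and the muscle genes ACTN2, ACTN3 and FLNC were not. The list labelled actin-sensing transcription holds SRF, MRTFA, MRTFB, ELK1, ELK3 and ELK4. Of these, only MRTFA and MRTFB are the coactivators that free actin holds back. All 6 were at or above 1 TPM, between 24.3 TPM for MRTFB and 73.5 TPM for ELK3, with SRF at 49.7, 52.2 and 42.0 TPM. TMSB15A, TMSB15B and PDXP were at or above 1 TPM in some replicates only. For PDXP, 68.5% of the canonical transcript also lies in exons of another gene with the same orientation.

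**Figure D5:**
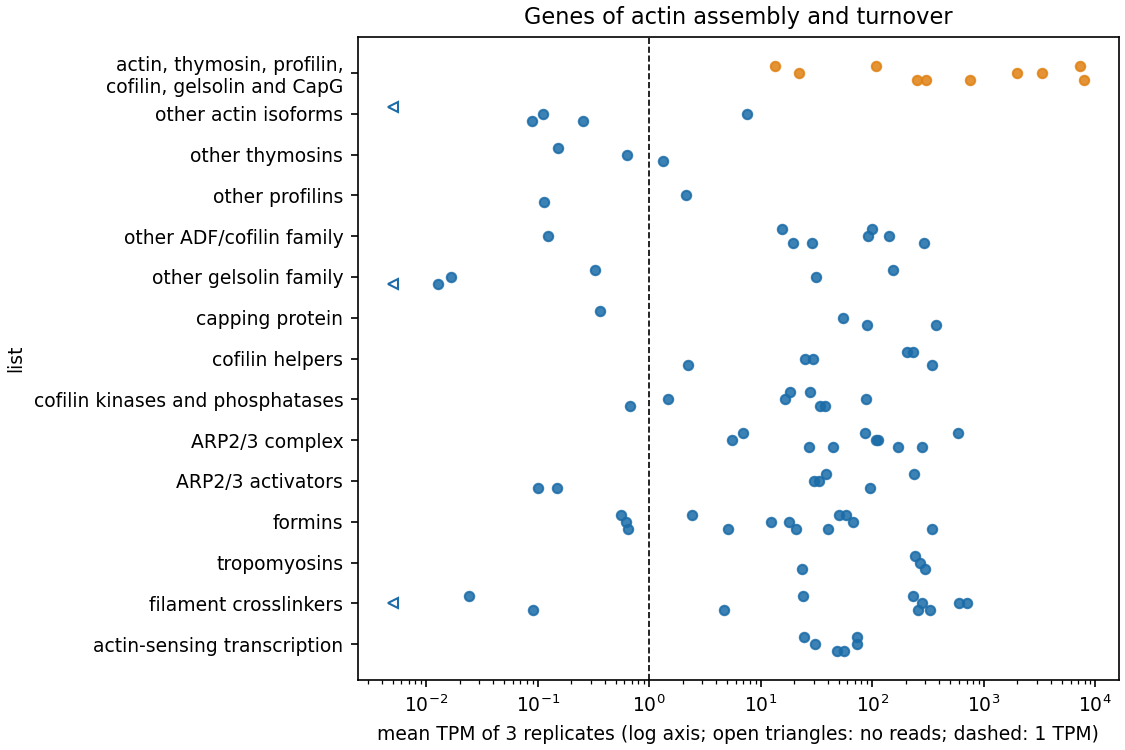
Mean TPM of 3 replicates on a log axis for the 10 genes (orange) and for 93 other genes in 14 lists (blue), with open triangles for the 3 listed genes without reads and a dashed line at 1 TPM. In deposited TPM, ACTB and TMSB10, at 7943 and 7323 TPM, lie above FLNA, the highest of the other genes at 708 TPM. With the lengths of canonical transcripts ARPC2, at 761 TPM, was above FLNA, at 578 TPM.

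SRF binds a sequence of 10 bases known as the CArG box. RefSeq promoter windows (GRCh38.p14, from 250 bases before to 50 after a start site) were at hand for 8 of the 10 genes, in 17 windows. ACTB and PFN2 had no entry. A CArG box, searched on both strands (its pattern is its own reverse complement), was found in 1 of the 17 windows, that of ACTG1, against 1.29% of all 35116 windows. It lies 94 to 85 bases before the start, in capitals in this stretch of chr17:81512859-81512918 (minus strand), which is shown because actin genes are known targets of SRF.
ACTG1 promoter: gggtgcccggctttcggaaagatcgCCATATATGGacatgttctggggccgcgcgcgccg
Binding of SRF was not measured here.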

How the data were processed

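RNA-seq of 3 replicates of MCF10A cells was analysed. By the paper's methods, Seq2science was used by the authors to map reads (hg38) and to count them. The submitters' processing notes name fastp, STAR and MultiQC and the build GRCh38.p14, and the annotation release, read length and use of strand are not given in the sources used here. The authors deposited TPM for 62754 genes, summing to 1000000 in each replicate. No other column of values was present.

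Genes were matched to GENCODE release 44 by Ensembl identifier (62700 found). Reads were recovered as TPM times the length of the longest transcript, less 1 base per exon, divided by the smallest such value; 100% came out whole within 0.01. This takes the smallest step as 1 read. Reads of simulated libraries on 62700 genes were returned in full, which checks the arithmetic only, since the same lengths were used both ways. It cannot test the lengths behind the deposited TPM or the size of the smallest step. Spread was the SD of log2(TPM + 1). No test was run, since there is 1 condition. A gene without reads was given the limit of 3 reads. Intervals and limits of this kind cover counting error only.

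The 10 genes, the lists and the alternatives were chosen with earlier results of these data known. The genes named are all 10 genes, the highest of each list, all other actin isoforms, the copy with the most reads, the 3 genes closest in TPM to ACTB and to TMSB10, and the highest marker of each cell type; others are named after their values were seen. The highest markers of muscle and blood, DES and LYZ, had means of 0.177 and 0.963 TPM. Alternatives covered scaling, gene length, copies, the summary of replicates, the cutoff, low values, the pseudocount and leaving out each replicate. Values were computed in Python 3.11.15 with pandas 2.3.3 and numpy 2.4.6, and figures were drawn with matplotlib 3.10.9.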

Additional observations from a re-analysis of the deposited data

How the results depend on the processing

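No paired analysis was possible because the series has a single group. The ratios between related genes do not depend on how TPM is scaled, and moved by less than 1 SD with the median of replicates or with reads of named pseudogenes added. The pseudogenes held at most 0.359% of a member's reads. Adding them could not restore reads that were counted at neither place, so it does not measure the effect of copies. With canonical lengths the ratios moved by more: ACTB to ACTG1 from 2.40 to 2.61, TMSB10 to TMSB4X from 24.3 to 8.84, PFN1 to PFN2 from 18.4 to 23.6, CFL1 to CFL2 from 34.1 to 51.3 and GSN to CAPG from 0.0537 to 0.135. With windows without a copy, an alternative chosen after seeing the data, they were 2.97, 2.38, 29.4, 52.7 and 0.132 in the same order. Leaving out each replicate in turn gave ranges of 2.39 to 2.42, 22.8 to 26.1, 17.5 to 19.4, 32.4 to 35.9 and 0.0520 to 0.0565. The share of TPM held by the 10 genes was 2.20% on average, 2.53% with protein-coding genes summing to 1000000, and 2.14% to 2.31% with a replicate left out. The number of listed actin genes at or above 1 TPM was 71. It was 76 when 0.5 TPM was required, 69 when 2 TPM was required or with at least 10 reads in every replicate, and 71 with either other scaling, the median of replicates or any replicate left out. With canonical lengths, added after seeing the data, it was 72, with TMSB15B the gene gained. The median SD between replicates of 0.14 ranged from 0.0482 without replicate 3 to 0.15 without replicate 2. Over all genes averaging 1 TPM or more, the median SD also fell without replicate 3, from 0.19 to 0.11. The cause was not tested. Of the TPM of the 10 genes, all 10 moved up by over 1 SD with protein-coding genes summing to 1000000, 2 moved up with mitochondrially encoded genes left out, and 9 moved with canonical lengths (5 up, 4 down). With any replicate dropped, no mean could shift that far, by construction. Depth limits CFL2 and GSN most, with 1436 and 1331 reads in all.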
